A study of Mus musculus with 11 samples.

Results

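The thyroid hormone deiodinases and receptors are the genes Dio2, Dio3, Thra and Thrb, chosen by symbol. Their rows were taken from the single-cell tables of the floor of the mouse cochlear duct, among 24898 genes that have a row at some age. Thra and Thrb have a row at every age, Dio2 has one at E16, P1 and P7 but not at E14, and Dio3 has none, so that 3 of the 4 genes could be described and Dio3 was not analysed here. Cells came from wildtype CD1 mice of either sex, without any treatment or transgene, at embryonic day 14 (E14, 2 libraries), embryonic day 16 (E16, 3), postnatal day 1 (P1, 4) and postnatal day 7 (P7, 2). Each library held dissociated cells pooled from the cochleae of several animals, captured in droplets and counted as unique molecules (UMIs) from the 3′ ends of transcripts. Age and day of collection cannot be told apart in this design.

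Thyroid hormone leaves the thyroid mostly as thyroxine (T4), a prohormone. The type 2 deiodinase Dio2 removes an outer-ring iodine and makes the active hormone T3, whereas the type 3 deiodinase Dio3 removes an inner-ring iodine and inactivates both hormones. T3 acts by binding the nuclear receptors encoded by Thra and Thrb, which sit on DNA with a retinoid X receptor and exchange corepressors for coactivators when the hormone is bound. The cochlea needs this pathway around the onset of hearing: without the hormone, or without Thrb, hearing is lost, and the tectorial membrane and the regression of Kölliker's organ are disturbed. Kölliker's organ (KO) is the transient ridge of columnar epithelium medial to the hair cells.

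The genes lie at the following places in GRCm38 (the mm10 build), as GENCODE M21 annotates them. Dio2 (ENSMUSG00000007682) is on chromosome 12, 90724552-90738438, minus strand, and Dio3 (ENSMUSG00000075707) is on the same chromosome, 110279068-110281097, plus strand. Thra (ENSMUSG00000058756) is on chromosome 11, 98740638-98769006, plus strand, and Thrb (ENSMUSG00000021779) on chromosome 14, 17660261-18038090, plus strand. The last part of Thra runs against Nr1d1 on the other strand, and 263 of its 4614 exonic bases lie within exons of Nr1d1. Whether counting used the strand is not given in the sources used here, so that reads from these shared bases could belong to either gene.

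Both deiodinases are selenoproteins: their active site is a selenocysteine, which is encoded by an in-frame TGA codon that would otherwise end translation. The stretches below are shown because they hold that codon, and hence the catalytic residue, of the enzyme that was measured and of the enzyme that was not. The codon is number 130 of Dio2 (chromosome 12, 90729823-90729825, exon 2) and number 170 of Dio3 (chromosome 12, 110279739-110279741, exon 1), both in coding sequence and both printed in capitals, and 46 of the 75 bases are alike.
Dio2: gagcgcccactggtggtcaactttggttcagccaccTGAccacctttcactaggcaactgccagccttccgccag
Dio3: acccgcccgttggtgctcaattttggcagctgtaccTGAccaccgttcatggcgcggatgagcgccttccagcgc

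The receptors are shown where they touch DNA. The stretches below are the coding bases around the P box, the run of residues in the first zinc finger with which a receptor reads its half-site, and the P box codons are in capitals. The P box begins at codon 71 of Thra-201 (the stretch spans exons 4 and 5, chromosome 11, 98756976-98760914) and at codon 139 of Thrb-202 (exons 2 and 3, chromosome 14, 18002581-18008607), and 70 of the 87 bases are alike.
Thra: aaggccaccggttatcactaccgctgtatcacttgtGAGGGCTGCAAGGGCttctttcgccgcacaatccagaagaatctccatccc
Thrb: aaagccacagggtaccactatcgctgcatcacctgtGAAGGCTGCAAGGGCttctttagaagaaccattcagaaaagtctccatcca

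Each receptor gene makes more than a single protein. The coding sequences of Thra-201 and Thra-202 share their first 1111 bases and then part, and those of Thrb-201 and Thrb-202 share their last 1104 bases and differ before them. The tables give a single value a gene, so the forms are summed in every level below. For Thra this includes a form that does not bind T3.

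The data behind the levels were as follows. The libraries held 1247 to 5598 cells and 3828399 to 23523802 UMIs, and levels are given in CPM, a gene's UMIs as a share of the UMIs of the cell on the usual per-library scale of sequencing counts, averaged over the cells of a library. Hair-gated cells carried at least 6 of 17 hair cell markers (65 cells in E14 libraries, 599 in E16, 1061 in P1 and 265 in P7 libraries) and KO-gated cells at least 6 of 15 KO markers (2184, 4332, 10031 and 2185 cells). The remaining 3004, 3030, 2951 and 927 cells are called other cells. The median KO-gated cell held 8 to 11 KO markers and 0 or 1 hair marker, and the median hair-gated cell 9 to 15 hair markers and 2 to 4 KO markers. The KO gate is a range along a graded score and not a discrete type. In all, 424, 589, 557 and 316 cells, of whatever class, carried exactly 6 KO markers. Between 9 and 62 barcodes of a library occurred in another library of the same age. Library 3 of E16 stood apart from the other E16 libraries in Thrb, which was lower there in hair-gated, KO-gated and other cells alike, so the tests of Thrb that rest on E16 are also given without it. For Thra, leaving it out changed a single call, given below.

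**Figure D1:**
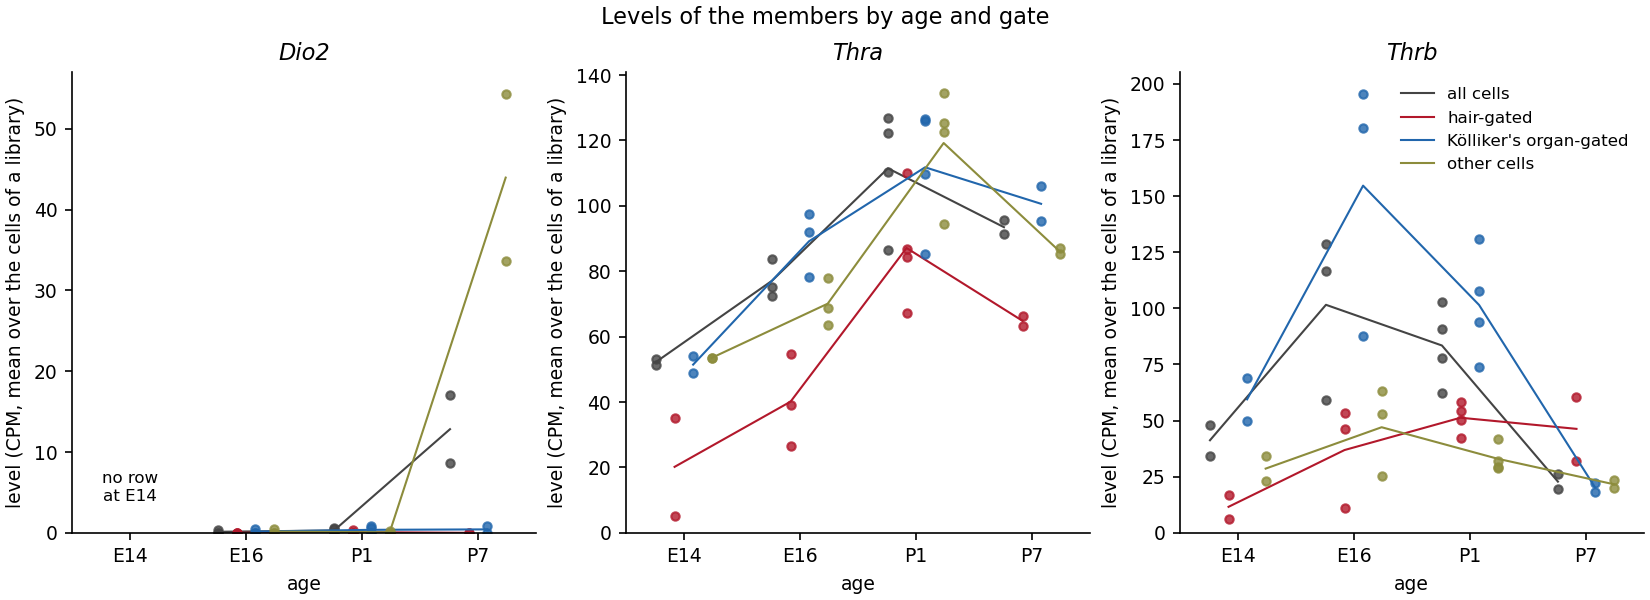
Level of Dio2, Thra and Thrb in CPM (vertical axes, linear, from 0) by age. Each point is a library, lines join the means of the libraries, and colours are all cells, hair-gated cells, Kölliker's organ-gated cells and other cells. Dio2 stays under 1 CPM in every gate but for other cells at P7, at 33.6 and 54.3 CPM, and hence for all cells at P7. Mean Thra is highest at P1, and Thrb in Kölliker's organ-gated cells runs from 154.7 CPM on average at E16 to 20.2 CPM at P7.

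Dio2 was close to absent from the duct floor at E16 and P1 and was found at P7 in a small group of mesenchymal cells. In all cells its level was 0.392, 0 and 0 CPM in the E16 libraries, on 3, 0 and 0 UMIs. At P1 it was 0, 0, 0.522 and 0.638 CPM, on 0, 0, 8 and 13 UMIs. At P7 it was 8.65 and 17.0 CPM, on 58 and 104 UMIs. Both P7 libraries were above every earlier library, by 1.13 ± 0.12 (SE) on the log2(CPM + 10) scale between P1 and P7, a scale that understates the change of a gene so near 0. Dio2 passed the filter on low levels, a mean of 1 CPM, only through the P7 libraries, and its adjusted p was 2.45e-05 with that filter and 6.39e-05 without it (limma). At that contrast 19.4% of 15188 genes were called with the filter. Between E16 and P1 the difference was 0.02 ± 0.10 (adjusted p = 0.914). Where no UMI was counted, a floor of 3 UMIs allows at most 0.292 CPM at E16 and 0.254 CPM at P1 in a library. This floor and the intervals below cover counting error only.

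The Dio2 UMIs of P7 were placed by class of cell. A mesenchymal gate (at least 3 of 9 markers, among them the fibrillar collagens Col1a2 and Col3a1, the transcription factor Pou3f4 of the otic mesenchyme and Coch, the extracellular protein cochlin) took in 87 and 179 cells, 4.90% and 11.2% of the libraries. These cells held 56 of 58 and 96 of 104 Dio2 UMIs, a level of 164 and 139 CPM. Their mesenchymal markers summed to 6643 to 7555 CPM, KO markers to 4837 to 5366 CPM and pillar and Deiters' markers to 2646 to 3009 CPM. Other markers of the list were sparse in the gate. Among gated cells with and without Dio2, Twist1 was seen in 0 of 28 and 0 of 59 (library 4) and 6 of 53 and 3 of 126 (library 5). For Prrx1 these were 4 of 28 and 4 of 59, and 6 of 53 and 11 of 126. Hair-gated cells held 0 Dio2 UMIs in both libraries, for which the floor of 3 UMIs is 3.36 and 2.84 CPM. KO-gated cells held 2 and 0, or 0.855 and 0 CPM. Pillar and Deiters' cells, Hensen's and outer sulcus cells and glial cells, each gated on their own markers, held 0 in both libraries. The floor of 3 UMIs is higher in each of these classes than in hair-gated cells. Hensen's and outer sulcus cells held only 170905 and 184314 UMIs of all genes and glial cells 120954 and 381005, against 893329 and 1054876 in hair-gated cells. The remaining 8 UMIs were in 6 unplaced cells of library 5, each of which carried 2 mesenchymal markers, 1 short of the gate.

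**Figure D2:**
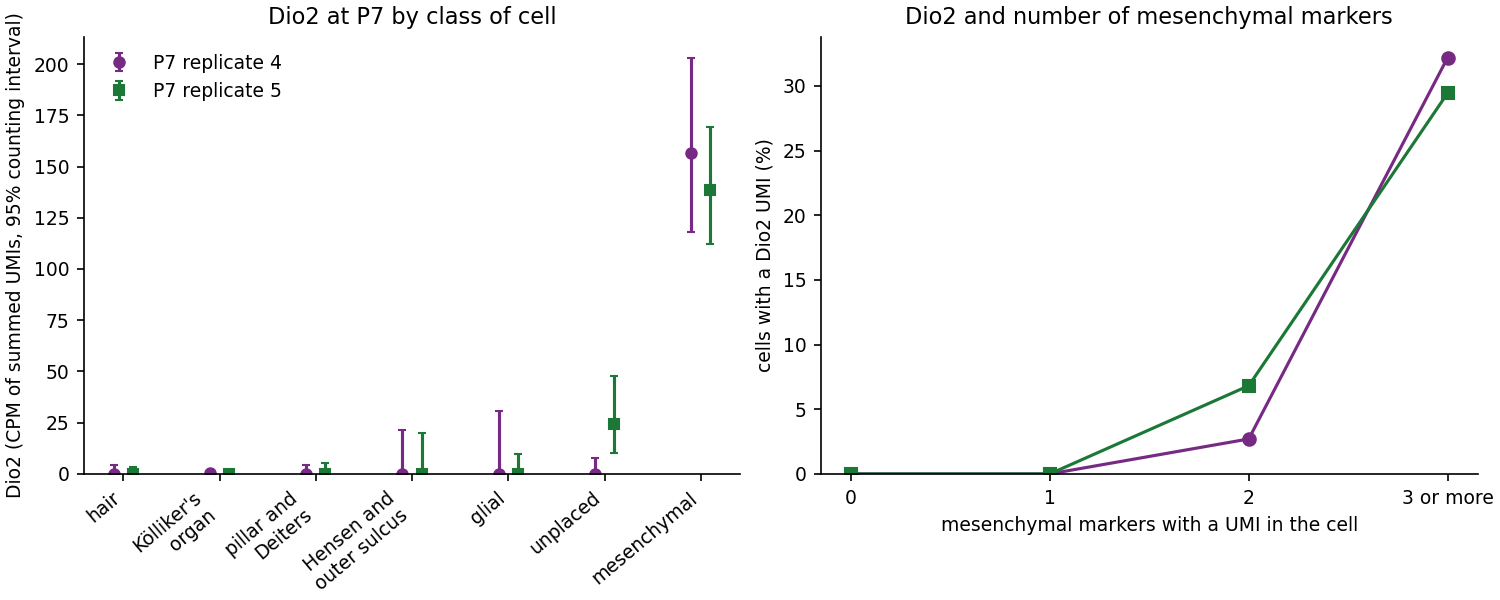
Left, Dio2 at P7 in CPM of the summed UMIs of a class of cell (vertical axis) with 95% counting intervals, for libraries 4 and 5. Right, the share of cells with a Dio2 UMI (vertical axis, %) by the number of mesenchymal markers with a UMI in the cell. Dio2 is 156 and 139 CPM in the mesenchymal class, against 24.2 CPM or less in the other classes drawn, and no cell with 0 or 1 mesenchymal marker has a Dio2 UMI.

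The number of mesenchymal markers in a cell went with Dio2 throughout. Of 2985 cells with 0 or 1 such marker, 0 had a Dio2 UMI, which allows a share of cells with a UMI of up to 0.101%, by counting error alone, and sets no limit on the share that expressed the gene. Of 392 cells with 2 or more, 88 did. Within the gate 28 of 87 and 53 of 179 cells had a Dio2 UMI (32.2% and 29.6%, or 14.9% and 11.2% with each cell thinned to 1500 UMIs). The median depth of gated cells with and without Dio2 was 4172 and 3685 UMIs in library 4 and 4063 and 3634.5 UMIs in library 5.

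Within the mesenchymal gate, cells with and without Dio2 differed in some of the other markers. Coch was detected in 26 of 28 cells with Dio2 against 41 of 59 without in library 4, and in 48 of 53 against 81 of 126 in library 5. Dio2 stood at 195 and 178 CPM in gated cells with a Coch UMI and at 63.1 and 37.7 CPM in those without. Postn, which encodes the matrix protein periostin, went the other way, with 0 of 28 and 0 of 53 cells with Dio2 against 7 of 59 and 17 of 126 without. Col1a1, a chain of type I collagen, was seen in 0 of 28 and 2 of 53 cells with Dio2 against 6 of 59 and 16 of 126 without. Egfl8, one of the genes most like Dio2 over the profiles of the libraries, was seen in 0 of 28 and 1 of 53 cells with Dio2 against 5 of 59 and 18 of 126 without. Gdf10, Gcg and Dmp1, also among those genes, had larger shares with Dio2 in both libraries. Gdf10 was seen in 20 of 28 and 36 of 53 cells with Dio2 against 36 of 59 and 63 of 126 without. For Gcg these were 6 of 28 and 19 of 53 against 9 of 59 and 26 of 126. For Dmp1 they were 13 of 28 and 35 of 53 against 27 of 59 and 62 of 126. Coch, Postn, Col1a1, Pou3f4, Tbx18 and Prrx1 are markers of the gate, so a cell without any of these had to pass it on other markers. These are counts and shares over cells of 2 libraries and carry no test.

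The share of mesenchymal cells rose with the Dio2 level from P1 to P7. Between E16 and P1 it did not, as gated cells went from 8 to 1 and Dio2 UMIs from 3 to 21. Mesenchymal-gated cells numbered 4, 8 and 1 in all the libraries of E14, E16 and P1 together, against 266 at P7, and the summed level of the 9 markers over all cells was 13.8 to 42.4 CPM in the libraries before P7 and 466 and 1124 CPM at P7. With mesenchymal, glial, neuronal and blood cells left out, 2 and 8 Dio2 UMIs remained at P7, or 0.636 and 1.86 CPM, beside 0 to 0.638 CPM in the P1 libraries. Other cells had 44.0 CPM of Dio2 on average at P7 and KO-gated cells 0.427 CPM, a difference of 2.35 ± 0.22 on the log2(CPM + 10) scale, and of 0.48 (adjusted p = 0.0536) with the non-epithelial cells left out. Dio2 passed the filter on low levels only through the other cells, and its adjusted p was 9.1e-22 with that filter (limma, 22.8% of genes called) and 0.242 without it, so the difference is given as a description. The 21 Dio2 UMIs of P1 lay mostly in KO-gated cells, with 7 in library 3 and 12 in library 4, at 0.638 and 0.847 CPM. These cells made up 74.7% and 72.0% of the libraries, and a background of free RNA was not tested.

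The window before the Dio2 start is shown because cAMP is a known inducer of the gene and the window holds the letters of a cAMP response element. The RefSeq start lies upstream of the end that GENCODE gives. In the 250 bases before it (GRCm38.p6, chr12:90739039-90739288, minus strand) the palindrome TGACGTCA, in capitals, occurs a single time at bases 95 to 88 before the start. It reads the same on both strands and occurs in 1.55% of 32851 windows of that length. A match of letters is no measurement of binding.
Dio2: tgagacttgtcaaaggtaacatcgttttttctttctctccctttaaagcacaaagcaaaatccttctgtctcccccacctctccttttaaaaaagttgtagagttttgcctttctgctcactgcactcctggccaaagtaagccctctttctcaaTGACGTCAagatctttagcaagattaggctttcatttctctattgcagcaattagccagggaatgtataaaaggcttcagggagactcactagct

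Thra, the receptor gene that is active in most tissues, was found in every gate at every age. Over all cells, E14 libraries had 53.1 and 51.4 CPM of it, E16 libraries 75.2, 83.8 and 72.3 CPM, P1 libraries 86.6, 110.3, 122 and 127 CPM, and P7 libraries 91.3 and 95.6 CPM. Every E16 library was above both E14 libraries, every P1 library was above every E16 library, and the P7 libraries lay within the range of P1. No step passed the threshold: E16 minus E14 was 0.48 ± 0.18 on the log2(CPM + 10) scale (adjusted p = 0.124), P1 minus E16 was 0.47 ± 0.15 (adjusted p = 0.0639) and P7 minus P1 was -0.22 ± 0.17 (adjusted p = 0.431). At the first of these steps 7.47% of genes were called and at the second 11.4%. Without library 1 of P1 the second step passed, at 0.58 (adjusted p = 0.0107).

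Thra was also measured within the gates. KO-gated cells had 53.9 and 48.9 CPM in the E14 libraries, 97.4, 92.0 and 78.1 CPM in those of E16, 85.3, 109.6, 126 and 126 CPM in those of P1, and 95.3 and 106 CPM in those of P7. Library 1 of P1 lay within the E16 range. The E16 values all exceeded the E14 values, and 0.69 ± 0.20 on the log2 scale missed the threshold narrowly (adjusted p = 0.0505, 8.35% of genes called); it passed without library 3 of E16 (0.77, adjusted p = 0.0353), without library 1 or 4 of P1, and under 2 other settings. Hair-gated cells had 5.22 and 35.1 CPM of Thra in the E14 libraries, on only 2 and 11 UMIs. The later values were 38.9, 54.7 and 26.7 CPM (E16), 67.2, 84.4, 86.8 and 110.0 CPM (P1) and 66.4 and 63.3 CPM (P7). Both P7 libraries lay below every P1 library, but P7 minus P1 was not called (-0.36 ± 0.36, limma, adjusted p = 0.612, 13.4% of genes called). All P1 libraries lay above all E16 libraries there, by 0.98 ± 0.32 (adjusted p = 0.0584, 10.0% of genes called), which passed the threshold without library 1 of P1, without either library of E14 and with a filter at 10 CPM. The step before it, 0.90 ± 0.38 (adjusted p = 0.137, 10.7% of genes called), hung on the E14 libraries: it was 0.11 without library 1 and 1.68 (adjusted p = 0.0099) without library 2.

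Hair-gated cells had less Thra than KO-gated cells of the same library in 11 of 11 libraries. The difference, hair minus KO on the log2(CPM + 10) scale, was -1.23 ± 0.40 in E14 libraries (adjusted p = 0.0437) and -1.02 ± 0.18 in E16 libraries (adjusted p = 0.000143). It was -0.33 ± 0.10 among P1 libraries (adjusted p = 0.0168) and -0.56 ± 0.19 among P7 libraries (adjusted p = 0.00673). The share of all genes called in these comparisons was 9.22%, 29.4%, 59.8% and 52.4%, so a call at P1 or P7 was common. The E16 call held under all 10 alternatives, the E14 call was lost under 5 of 7 and the P7 call under 1 of 7. The P1 call was lost without library 2 (adjusted p = 0.0617) or 3 (adjusted p = 0.109), without cells of over 3000 genes and without the library block. Other cells did not pass the threshold against KO-gated cells at any age, with differences of 0.05 ± 0.09, -0.31 ± 0.11, 0.09 ± 0.06 and -0.20 ± 0.16 from E14 to P7.

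Among finer classes at P1, the order of mean Thra levels was interdental cells, KO-gated cells, pillar and Deiters' cells, Hensen's and outer sulcus cells and hair-gated cells, from 138 to 87.1 CPM, and the range of each class overlapped that of the next. At P7 mesenchymal-gated cells had 133 and 108 CPM of Thra and glial cells 86.6 and 44.9 CPM. Pillar and Deiters' cells had the lowest mean, at 58.1 and 51.8 CPM, below the hair-gated cells in both libraries but above the glial cells of library 5.

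Thrb, the receptor gene that hearing depends on, rose and fell in the KO gate. KO-gated cells had 49.8 and 69.1 CPM of it in the E14 libraries, 196, 181 and 87.7 CPM in the E16 libraries, 131, 93.7, 108 and 73.7 CPM in the P1 libraries, and 18.3 and 22.2 CPM in the P7 libraries, on 119 to 1719 UMIs a library. The 3 E16 libraries and the 4 P1 libraries all exceeded the 2 E14 libraries, and both P7 libraries lay below every library of the other ages. Markers of other cells also moved within the KO gate between P1 and P7. The summed level of the 9 Hensen's and outer sulcus markers in KO-gated cells was 451 to 779 CPM in the P1 libraries and 1448 to 1859 CPM in those of P7, that of the 9 mesenchymal markers was 9.58 to 32.6 and 99.8 to 134 CPM, and that of the 15 KO markers was 19790 to 23988 and 16170 to 16715 CPM. At P7 the KO markers summed to 15115 to 16558 CPM in Hensen's and outer sulcus cells as well, and Crabp1, a KO marker, was detected in as few as 4 KO-gated cells of a P7 library, against at least 1258 at P1. The part of these markers in the Thrb change was not tested. The mean fell 5.01-fold between P1 and P7, which was -1.86 ± 0.29 on the log2(CPM + 10) scale (adjusted p = 0.000342, 20.4% of genes called), and this fall held under all 18 alternatives (adjusted p of 5.6e-05 to 0.0494). The rise between E14 and E16, 2.60-fold in the means and 1.19 ± 0.30 on the log2 scale (adjusted p = 0.029), did not hold under 6 of 18: it was lost without either library of E14, without library 1 or 2 of E16 (adjusted p of 0.103 to 0.289), without the filter on low levels and with CPM of summed UMIs. Without library 3 of E16 it was 1.525 (adjusted p = 0.00242). Between E14 and E16 the 15 KO markers in this gate went from 9151 to 9309 CPM to 16028 to 16936 CPM, and the 8 vascular, immune and blood markers from 11.6 to 54.7 CPM to 92.1 to 598 CPM, and their part in the rise was not tested.

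The step between E16 and P1 turned on a single library. P1 minus E16 in KO-gated cells was -0.51 ± 0.25 (adjusted p = 0.199, 12.2% of genes called), and without library 3 of E16 it was -0.85 (adjusted p = 0.0168). That library was also the lowest of its age in hair-gated cells (10.9 CPM beside 53.4 and 46.3) and in other cells (25.2 CPM beside 53.0 and 63.0), while its Thra level in all cells was 72.3 CPM beside 75.2 and 83.8. Its depth, with a median of 2750 UMIs a cell, was the highest of the E16 libraries.

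Over all cells the Thrb level of the libraries was 34.3 and 48.2 CPM (E14), 117, 129 and 59.4 CPM (E16), 103, 78.0, 90.8 and 62.3 CPM (P1) and 19.6 and 26.0 CPM (P7). It rose by 1.07 ± 0.28 on the log2 scale from E14 to E16 (adjusted p = 0.0391), a call that was lost under 10 of 18 alternatives, among them leaving out either library of E14, library 1 or 2 of E16, library 2 or 3 of P1 or either library of P7. Without library 3 of E16 it was 1.385 (adjusted p = 0.00318). It fell by 1.497 on that scale from P1 to P7 (SE 0.27, adjusted p = 0.00152). The make-up of the libraries moved over the same step, with summed glial markers of 109 to 145 CPM over all cells at P1 and 1016 to 3052 CPM at P7, and 8 glial cells at P1 against 138 at P7, in which Thrb was 0 and 10.4 CPM in the P7 libraries. With the mesenchymal, glial, neuronal and blood cells left out the difference was -1.45 (adjusted p = 0.00193). The call over all cells was lost when the replicate number was kept as a block (-1.29, adjusted p = 0.0853), a number that libraries of different ages only happen to share.

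After E16 the course of Thrb in hair-gated cells differed from that in KO-gated cells. Their Thrb level was 6.21 and 17.0 CPM (E14), 53.4, 46.3 and 10.9 CPM (E16), 50.1, 54.2, 58.4 and 42.4 CPM (P1) and 31.9 and 60.7 CPM (P7). The counts behind the E14 values were only 2 and 8 UMIs, and the P7 values, on 27 and 62 UMIs, lay on either side of the P1 range. No step was called in hair-gated cells: 1.01 ± 0.41 from E14 to E16 (adjusted p = 0.123, 10.7% of genes called), 0.53 ± 0.34 from E16 to P1 (adjusted p = 0.37) and -0.16 ± 0.39 from P1 to P7 (adjusted p = 0.861, 13.4% of genes called). Without library 3 of E16 the first of these was 1.515 (adjusted p = 0.0124) and the second 0.029 (adjusted p = 0.972), where leaving out 1 library gave up to 0.83 for the second, and the last changed sign, to 0.21, without library 4 of P7.

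**Figure D3:**
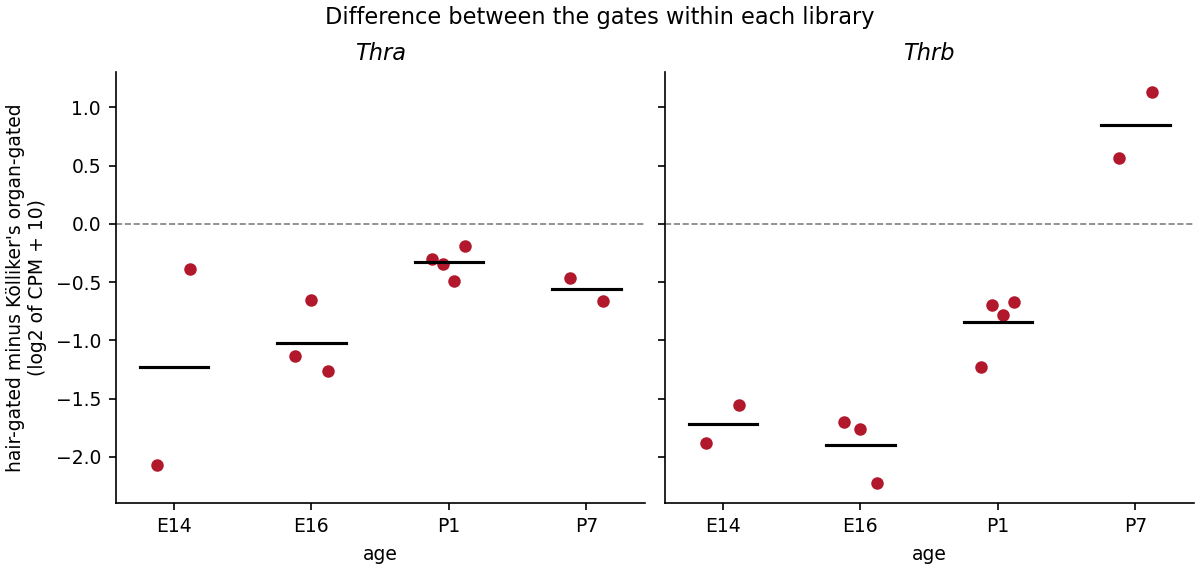
Hair-gated minus Kölliker's organ-gated level of Thra and Thrb within each library (vertical axis, log2 of CPM + 10) by age. Points are libraries, black bars are means of the libraries, and the dashed line marks no difference. Thra stays below 0 in all 11 libraries, whereas Thrb is below 0 in the 9 libraries up to P1 and above 0 in both P7 libraries.

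The order of hair-gated and KO-gated cells in Thrb therefore turned over. At P7 the KO markers summed to 16170 to 16715 CPM in the KO gate. In Hensen's and outer sulcus cells they summed to 15115 to 16558 CPM, so the P7 order holds for the gate and not for a discrete cell type. Within a library, hair minus KO on the log2(CPM + 10) scale was -1.88 and -1.55 (E14), -1.70, -1.76 and -2.23 (E16), -1.23, -0.69, -0.78 and -0.67 (P1) and 0.57 and 1.13 (P7). The values of different ages do not overlap from E16 onwards. The KO-gated level was 3.66 to 8.06 times the hair-gated level at E16, and the hair-gated level was 1.75 and 2.73 times the KO-gated level at P7. Tested age by age, the mean difference was -1.72 ± 0.38 for E14 (adjusted p = 0.00187), -1.89 ± 0.17 for E16 (adjusted p = 2.46e-08), -0.85 ± 0.12 at P1 (adjusted p = 0.000144) and 0.85 ± 0.22 at P7 (adjusted p = 0.000328). The E16 and P1 calls held under all their alternatives, the first at -1.73 without library 3 of E16 (limma, adjusted p = 1.22e-11). Without that library the fit has 1 residual degree of freedom and leans on the spread pooled over genes, so the smaller p is not stronger evidence. With only 2 libraries the E14 call was lost under 3 of 7 alternatives and the P7 call under 2 of 7, namely without a filter on low levels (adjusted p = 0.133) and with the stricter gates (0.46, adjusted p = 0.0949).

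The change of this difference between ages was tested directly on the values per library. From E16 to P1 it moved by 1.05 ± 0.23 toward hair-gated cells (limma, adjusted p = 0.00448, 14.0% of genes called). From P1 to P7 it moved by a further 1.70 ± 0.26 (limma, adjusted p = 0.000102, 23.6% of genes called). Both held under all 17 alternatives, with 0.88 to 1.28 and 1.35 to 2.04 on the log2 scale, and the first was 0.88 without library 3 of E16 (adjusted p = 0.0285). Over the step from E16 to P1 the Hensen's and outer sulcus markers in KO-gated cells went from 165 to 194 CPM to 451 to 779 CPM and the vascular, immune and blood markers from 92.1 to 598 CPM to 7.71 to 132 CPM, and their part in the first change was not tested. From P1 to P7 the Hensen's and outer sulcus markers in KO-gated cells went from 451 to 779 CPM to 1448 to 1859 CPM. Their part in the second change was not tested. From E14 to E16 the hair minus KO difference moved by -0.18 ± 0.27 (limma, adjusted p = 0.731), and -0.0097 without library 3 of E16 (adjusted p = 0.989). For Thra the corresponding change from E14 to E16 was 0.21 ± 0.35 (limma, adjusted p = 0.751), and -0.633 to 1.052 when a library was left out. The later changes for Thra were 0.69 ± 0.29 from E16 to P1 (limma, adjusted p = 0.13) and -0.23 ± 0.33 from P1 to P7 (limma, adjusted p = 0.688). The first of these passed without either library of E14.

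Other cells were below KO-gated cells in Thrb until P1 and did not pass the threshold against them at P7. They had 23.0 and 34.3 CPM (E14), 53.0, 63.0 and 25.2 CPM (E16), 42.0, 28.9, 31.9 and 29.3 CPM (P1) and 20.0 and 23.3 CPM (P7). Every library before P7 had 2.02 to 3.70 times as much Thrb in its KO-gated as in its other cells. Other minus KO was -0.85 ± 0.10 for E14 (adjusted p = 4.15e-15, 25.4% of genes called), -1.52 ± 0.10 for E16 (adjusted p = 2.1e-06, 12.6% called), -1.36 ± 0.08 at P1 (adjusted p = 4.88e-07, 28.9% called) and 0.07 ± 0.21 at P7 (adjusted p = 0.866). The first 3 of these calls held under all alternatives, that of E16 at -1.55 without library 3 (limma, adjusted p = 7.1e-16). The p-values at E14, and at E16 without library 3, lean on the spread pooled over genes. The smaller p at E16 is therefore not stronger evidence.

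Thrb also differed among finer classes. At P1 KO-gated cells (101.5 CPM on average) stood above hair-gated cells (51.3 CPM) with no overlap of the libraries, and hair-gated, Hensen's and outer sulcus, pillar and Deiters' and interdental cells followed with overlapping ranges, down to 28.8 CPM. At P7 the highest means were those of hair-gated cells (46.3 CPM) and pillar and Deiters' cells (42.9 CPM, at 30.6 and 55.2 in the libraries), followed by Hensen's and outer sulcus cells (59.2 and 10.5 CPM, on 13 and 2 UMIs). KO-gated cells (20.2 CPM) and mesenchymal-gated cells (19.2 CPM) were lower, and glial cells lowest, with 0 and 10.4 CPM. At P7 all neighbours in this order overlapped, save mesenchymal-gated and glial cells.

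At P1, Thrb within the KO gate differed by Fabp7. Fabp7, which encodes a brain-type fatty acid binding protein and is no marker of the KO gate, was used to divide KO-gated cells, a choice made with values of these data known and without a test. At P1 cells with a Fabp7 UMI had 92.7, 53.8, 47.6 and 46.1 CPM of Thrb in the 4 libraries and cells without had 139, 96.4, 112 and 74.5 CPM. Thrb was thus lower in the Fabp7 cells of 4 of 4 libraries, on 101 to 411 such cells a library. The cells with a Fabp7 UMI were the deeper ones, with medians of 4775 to 5977 against 3628.5 to 5425 UMIs. At P7 the values were 14.2 and 22.6 CPM with Fabp7 and 19.2 and 22.1 CPM without, in opposite order in the 2 libraries. At E16 the order was the reverse of that at P1, with 196.0, 204 and 114.5 CPM in the 11, 34 and 23 cells with Fabp7 and 195.7, 180.05 and 87.5 CPM without, and at E14, with 4 such cells a library, the libraries differed in order. Thra at P1 was lower with Fabp7 in 3 of 4 libraries, at 68.0, 97.4, 135 and 113 CPM against 88.6, 110.4, 125 and 127 CPM.

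**Figure D4:**
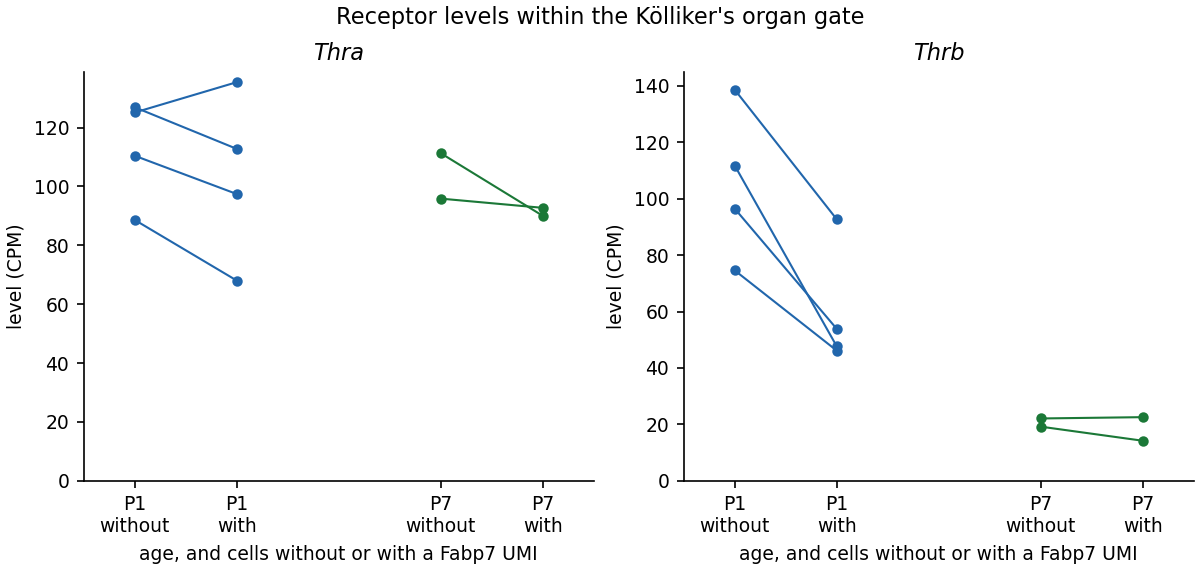
Thra and Thrb in Kölliker's organ-gated cells without and with a Fabp7 UMI (vertical axes, CPM), at P1 and P7. Each line joins the 2 values of a library. Thrb is lower with Fabp7 in 4 of 4 libraries at P1, from 74.5 to 139 CPM without and from 46.1 to 92.7 CPM with it, and is near 20 CPM on both sides at P7.

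The genes whose levels were most like those of each member were named by Pearson's r of log2(CPM + 10) over the hair, KO and other profiles of the libraries, as a description without a test. Profiles of a library share its depth, and the ages share their trends. For Dio2, over 27 profiles of 9 libraries, these were Gdf10, Dmp1, Gcg, Coch and Egfl8 (r of 0.997 to 0.99), a likeness that rests on the other cells of the 2 P7 libraries. For Thrb, over 33 profiles, they were Slc12a2, a sodium, potassium and chloride cotransporter, with r = 0.848, and Dennd4a, Mtcl1, Plxna2 and Adgrg2, the last of which is a marker of the KO gate. For Thra they included C1qtnf4 (r = 0.855), Ccdc107, Ncstn and Ocrl.

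The rest of the pathway was read from a list of 39 genes by role, 37 of which had a row at some age. Of its tested genes, 1 of 34 was called from E14 to E16 in all cells, 4 of 34 from E16 to P1 and 11 of 35 from P1 to P7, where 8 were higher and 3 lower. Over all genes the shares called at these steps were 7.47%, 11.4% and 19.4%, against 2.94%, 11.8% and 31.4% of the list. Slco1c1 and Slc26a5 passed the filter on low levels only through P7. Over all cells their means were 0.00875 and 0.0465 CPM at P1 and 42.1 and 3.35 CPM at P7. The share of the list at the last step is therefore a description. The median change of the list from P1 to P7 was 0.04 on the log2 scale and that of all genes -0.01.

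Of the list's roles, the response genes had the most genes called higher from P1 to P7 in all cells and in both gates. These counts take in genes that passed the filter on low levels only through P7. Klf9, a zinc finger transcription factor and a direct receptor target in many tissues, was 48.6 to 90.6 CPM in the KO-gated cells of the P1 libraries and 397 and 492 CPM at P7, a rise of 2.45 ± 0.25 on the log2 scale (adjusted p = 8.49e-06). In hair-gated cells it went from 47.9 to 63.7 CPM at P1 to 297 and 253 CPM at P7 (2.20 ± 0.27, adjusted p = 9.5e-06), and at P7 it was 333 to 350 CPM in other cells. Its earlier rise from E16 to P1 was called in both gates too, but in hair-gated cells it followed a called fall from E14 to E16, from 62.5 to 20.4 CPM on average (-1.27 ± 0.28, adjusted p = 0.00723), and the mean at P1 was 52.0 CPM. Hr, which encodes the corepressor hairless, went from 0.0708 to 1.72 CPM at P1 to 14.96 and 18.82 CPM at P7 in KO-gated cells (a difference of 1.31 ± 0.10). In hair-gated cells Hr had 0 CPM at P1 and 0.882 and 2.98 CPM at P7. Hair-gated cells had less of it than KO-gated cells at P7 by 1.17 ± 0.23 on the log2 scale (limma, adjusted p = 1.17e-06). This p rests on 1 residual degree of freedom and leans on the spread pooled over genes. In hair-gated cells Slc26a5, which encodes the outer hair cell motor prestin, was 0 to 2.35 CPM in the P1 libraries and 36.8 and 45.3 CPM in those of P7, a difference of 2.27 ± 0.27. Hr in KO-gated cells and Slc26a5 in hair-gated cells passed the filter on low levels only through P7, so their differences are given as descriptions without a p. Kcnj10, an inward rectifier potassium channel, rose in hair-gated cells by 2.02 ± 0.25 (adjusted p = 1.32e-05), to 20.5 and 53.5 CPM beside 50.8 and 53.2 CPM in other cells. In the hair gate the summed hair markers were 21709 to 26865 CPM at P1 and 12440 to 13309 CPM at P7, pillar and Deiters' markers 367 to 623 and 714 to 854 CPM, and mesenchymal markers 3.74 to 5.19 and 23.1 to 28.2 CPM, and their part in these changes was not tested. In all, 4 of the 5 tested response genes were called higher in KO-gated cells and 5 of 6 in hair-gated cells, and none was called lower. These counts take in Hr in KO-gated cells and Slc26a5 in hair-gated cells, which were tested only because of their P7 levels. They are therefore a description. Over all genes under the same filter, 20.4% and 13.4% were called in either direction.

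**Figure D5:**
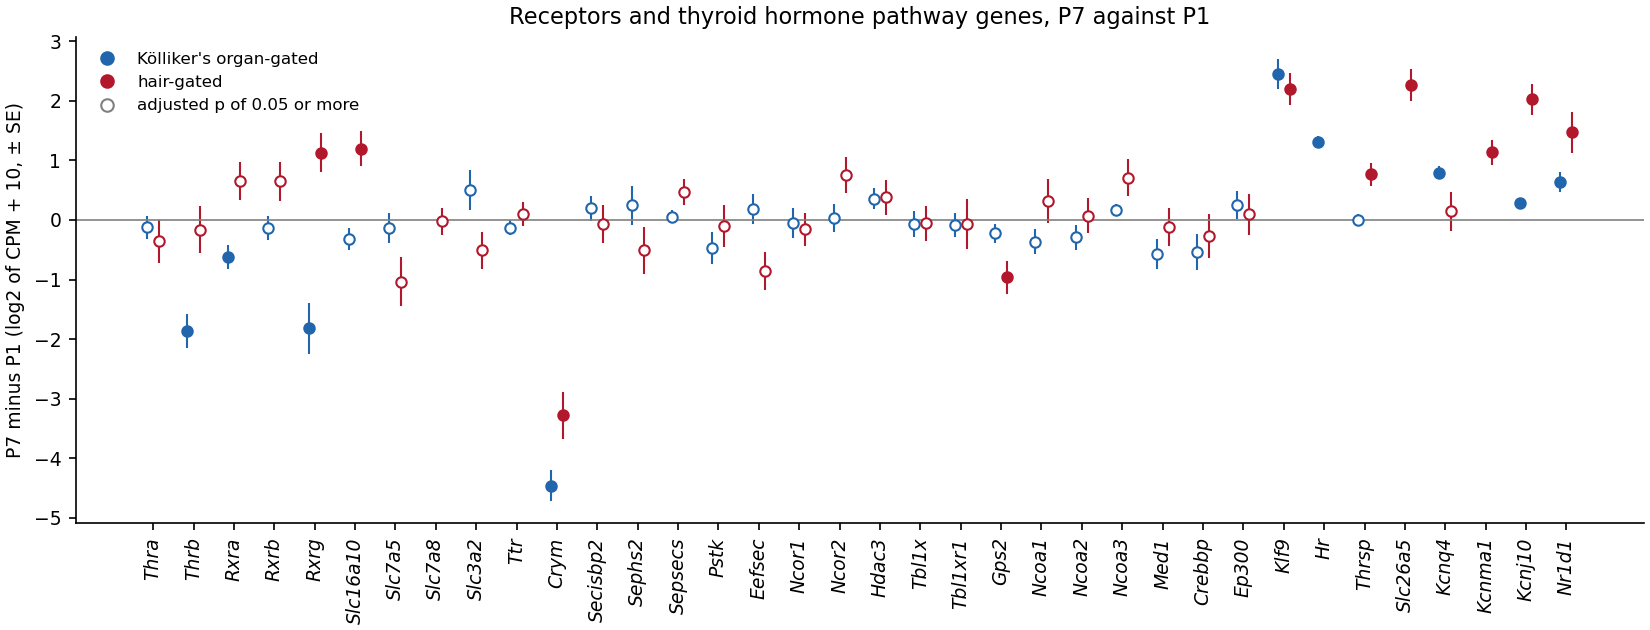
P7 minus P1 for the receptors and genes of the pathway list (horizontal axis) on the log2(CPM + 10) scale (vertical axis) with standard errors, in Kölliker's organ-gated and hair-gated cells. Filled points passed an adjusted p of 0.05 (limma). Klf9 rose in both gates, Crym fell in both, and Thrb and Rxrg fell in Kölliker's organ-gated cells.

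The receptors' partners did not move together. Rxrg, a retinoid X receptor, was 63.1 to 353 CPM in the KO-gated cells of the P1 libraries and 32.9 to 36.01 CPM at P7, a fall of 1.82 on the log2 scale (SE 0.43, adjusted p = 0.00776). In hair-gated cells it rose by 1.13 (SE 0.32, adjusted p = 0.0222), and the difference of the change between the gates was 2.95 ± 0.41 (adjusted p = 4.34e-05). Rxrg was also below KO in hair-gated cells at E14, E16 and P1, by 2.73 to 3.06 on the log2 scale. Rxra fell in KO-gated cells, by 0.62 on the log2 scale (SE 0.20, limma, adjusted p = 0.0376), to 2.26 to 2.80 CPM at P7. It was 43.6 to 64.4 CPM in hair-gated cells, higher by 2.33 ± 0.24 (limma, adjusted p = 9.61e-22). That last p rests on 1 residual degree of freedom and leans on the spread pooled over genes. Of 3 partners, 2 fell in KO-gated cells and 1 rose in hair-gated cells from P1 to P7, where, as for the counts that follow, 20.4% and 13.4% of all genes were called. Of 6 corepressors and 6 coactivators, 0 were called in KO-gated cells from P1 to P7 by limma (0 and 1 had an unadjusted p under 0.05), and in hair-gated cells Gps2, a subunit of the NCoR complex, fell by 0.96 on the log2 scale (SE 0.27, adjusted p = 0.0226).

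Genes of hormone supply changed at both steps around P1. Slc16a10, a thyroid hormone transporter, rose from E16 to P1 in KO-gated cells (0.82 ± 0.16, adjusted p = 0.00478), as did Crym (0.93 ± 0.22, adjusted p = 0.0158), where 12.2% of genes were called. Crym, which encodes the cytosolic T3-binding protein μ-crystallin, was 241 to 528 CPM in KO-gated cells at P1 and 6.37 and 5.44 CPM at P7, a fall of 4.46 on the log2 scale (SE 0.25, adjusted p = 2.54e-08). It fell by 3.28 in hair-gated cells (SE 0.40, adjusted p = 8.07e-06). The 5 tested genes of selenoprotein synthesis, which both deiodinases depend on, held 0 calls in KO-gated and in hair-gated cells from P1 to P7 (limma), with 0 and 2 at an unadjusted p under 0.05. Eefsec, of this role, did differ between the gates, at 11.1 CPM in hair-gated and 46.0 CPM in KO-gated cells at P7. Its hair minus KO difference changed by -1.05 ± 0.29 from P1 to P7 (limma, adjusted p = 0.0134, 23.6% of genes called).

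The mesenchymal gate, in which 28 of 87 and 53 of 179 cells had a Dio2 UMI at P7, also held other genes of hormone supply, measured over all its cells. Slco1c1, the T4 transporter OATP1C1, was 463 and 444 CPM there, beside 3.31 and 2.42 CPM in hair-gated cells and 3.43 and 3.42 CPM in KO-gated cells, and 0 to 0.035 CPM over all cells in the P1 libraries. Crym was 319 and 260.0 CPM in the gate, beside 4.90 and 5.49 CPM in hair-gated cells. In other cells as a whole, Slco1c1 exceeded KO-gated cells by 3.43 ± 0.19 on the log2 scale (limma, adjusted p = 8.37e-51). Crym exceeded them by 2.71 ± 0.19 (limma, adjusted p = 3.33e-34). Both p-values lean on the spread pooled over genes, so their size is not a measure of the strength of evidence. In this comparison 22.8% of genes were called, and the count of calls fell from 3346 to as low as 0 among the alternatives. Klf9 was 449 and 386 CPM in mesenchymal-gated cells and Hr 12.6 and 5.83 CPM. Thrb was 15.8 and 22.6 CPM in the gate, on 5 and 14 UMIs.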

How the data were processed

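Single-cell transcriptomes of the mouse cochlear duct floor were measured in 11 libraries. Per the labels, the submitters used Cell Ranger 2.1.1, Seurat 2.0 and the mm10 build. The authors deposited a table per age of natural log values, ln(1 + 10000 × share of the UMIs of a cell). Back-transformed values summed to 10000 in every cell and gave whole UMIs within 2% for all values, so levels are comparable between tables. The deposited data held 1247 to 5598 cells a library, and 0 columns were left unmapped. At E14 and P7 they held 5253 and 3377 cells, more than the text of the study gives for these ages. No doublet caller was run here, and an alternative left out cells of over 3000 genes.

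The members, marker lists and pathway list were chosen with earlier results of these data known. Many markers come from the study's own lists on these libraries. Cells were gated by the number of markers with a UMI, in the order hair, non-epithelial, finer supporting classes, KO. The limits (6 for hair and KO, 3 for mesenchymal, neuronal and blood, 4 for glial, 5 for finer classes) were set after seeing the distributions of marker counts but not the members' values. Profiles were means of CPM over cells, with at least 5 cells. Genes of mean CPM of at least 1 were tested on the log2(CPM + 10) scale by limma (version 3.58.1, run under R version 4.3.3), with empirical Bayes and a mean trend, Benjamini-Hochberg adjustment over all genes tested and a threshold of 0.05. Age fits used all 11 libraries, and gate fits used the libraries of an age with the library as a block, which leaves 1 residual degree of freedom at E14 and P7. Those tests, and the gate fits of E16 with a library left out, lean on the spread pooled over genes. p-values measure the spread between pooled libraries. The Dio2 contrast of E14 with E16 could not be fitted.

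Of the pathway genes the text names at most 3 rises and 3 falls per comparison, those with the largest change past the threshold, beside counts for the whole list (some genes under this rule are not reported here), and for genes so named it may give other values. The 5 most similar genes had to reach a mean of 10 CPM. The mesenchymal panel and Fabp7 were chosen after values were seen. The fits were tested on simulated data. Alternatives were a pseudocount of 1, a filter at 10 CPM or none, CPM of summed UMIs, stricter gates (9 markers), leaving out non-epithelial cells or cells of over 3000 genes, fits without the library block or with the replicate number as a block, and leaving out each library.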

Additional observations from a re-analysis of the deposited data

Results flagged for a closer look

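The hair minus KO difference in Thrb changed between ages by a test of the change itself, by 1.05 on the log2(CPM + 10) scale from E16 to P1 and by 1.70 from P1 to P7 (limma).

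In 21 groups of 4 libraries at P1, the highest or lowest library lay beyond Dixon's 95% limit from the others in 4 cases. For Dio2 these were hair-gated cells of library 4 (0.366 CPM), interdental cells of library 3 (0.803 CPM) and other cells of library 3 (0.281 CPM), each on 1 UMI against 0 in the other libraries, a pattern that passes the limit by construction. For Thra it was the unplaced cells of library 4, at 149 CPM, where chance passes the limit in about 1 of 20 groups.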

How the results depend on the processing

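Of 605 alternative values for 43 results on Dio2, Thra and Thrb, 546 kept their direction and their side of the threshold, 34 lost a call, 17 gained a call and 8 changed sign; the cause of each change was not tested.

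Without a filter on low levels, calls were lost for Thrb from E14 to E16 in all cells (1.07) and KO-gated cells (1.19), for hair minus KO at E14 (Thra -1.23, Thrb -1.72) and P7 (Thra -0.56, Thrb 0.85), and for Dio2 in other minus KO at P7 (2.35). CPM of summed UMIs lost Thrb from E14 to E16 (all cells 1.015, KO 1.08). A filter at 10 CPM gained Thra in hair-gated cells from E16 to P1 (0.98) and in KO-gated cells from E14 to E16 (0.69). Without cells of over 3000 genes, Thrb in hair-gated cells (1.67) and Thra in KO-gated cells (0.75) gained calls from E14 to E16, hair minus KO lost them at E14 (Thra -1.57, Thrb -2.23) and P1 (Thra -0.32), and the Thrb difference of change from E14 to E16 turned to 0.34. It also turned with a pseudocount of 1 (0.16) and the stricter gates (0.036). The stricter gates turned the Thra difference of change from E14 to E16 (-0.30) and other minus KO for Thra at E14 (-0.012) and Thrb at P7 (-0.079), and lost hair minus KO for Thra at E14 (-0.95) and Thrb at P7 (0.46). Without the library block, hair minus KO was lost at E14 (Thra -1.23, Thrb -1.72) and P1 (Thra -0.33). A pseudocount of 1 lost it for Thra at E14 (-1.805). Without non-epithelial cells, Dio2 in other minus KO at P7 was 0.48.

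Leaving out a library gave, from E14 to E16, 0.876 to 1.385 for Thrb in all cells, 0.113 to 1.681 for Thra and 0.642 to 1.515 for Thrb in hair-gated cells, 0.627 to 0.770 for Thra and 0.984 to 1.525 for Thrb in KO-gated cells, and -0.633 to 1.052 for the Thra difference of change. From E16 to P1 it gave 0.408 to 0.575 for Thra in all cells, 0.769 to 1.179 in hair-gated cells and 0.566 to 0.870 for its difference of change, and -0.854 to -0.317 for Thrb in KO-gated cells. From P1 to P7 it gave -0.540 to 0.213 for Thrb in hair-gated cells, and for Thra, hair minus KO at P1, -0.378 to -0.277.

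With the replicate number as a block, Thrb from P1 to P7 in all cells was -1.286 and lost its call (adjusted p = 0.0853). Libraries of equal number did not deviate together (correlations of -0.283 to 0.112 over 8981 genes), so the numbers were not read as pairs. Dio2 could not be fitted over all cells with a filter at 10 CPM or without non-epithelial cells. Leaving out a library leaves no residual degrees of freedom for gate comparisons at E14 and P7, and was not run. Counts of genes called moved with the setting, for example from 2960 to between 1215 and 3605 for KO-gated cells from P1 to P7. In gate comparisons with 2 libraries they could fall to 0. This held for hair against KO, from 1306 at E14 and 7796 at P7, and for other against KO at P7, from 3346. Depth limits Dio2 before P7 and both receptors in E14 hair-gated cells.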
